A study of Mus musculus with 4 samples.

Results

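The type 1 immune axis was followed through *IL-12β*, *IL-18*, *IL-23*, *IFN-γ* and *CXCL-9*, 5 of the 98 genes of an RT-qPCR panel. They were taken by name, and their numbered assays were found by matching the 3 fold changes printed for each gene to the deposited fold-change table. The panel was run on whole lungs of female C57BL/6J mice aged 6 to 8 weeks, and the question was how the inhaled protein S100A8 alters lungs with and without lung cancers. Each value is the mean threshold cycle (Ct) of 4 to 5 mice, so each group has 1 value per gene, with no SD, no n and no test, and every comparison below is a description of 4 averages.

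The groups differed by cells and by treatment. HBSS + vehicle lungs received the cell-free carrier (DPBS with Matrigel) and the salt solution HBSS. S100A8 + vehicle lungs received the same carrier and 10 µg of S100A8 per dose. HBSS + LLC and S100A8 + LLC lungs were injected with Lewis lung carcinoma (LLC) cells, 1 mouse lung cancer line that grows in this strain, and then given HBSS or S100A8. All doses were intranasal, on Days 3, 6 and 9, and all lungs were harvested on Day 10. A whole lung holds many cell types, so fewer cells of a type and less RNA per cell cannot be told apart, and LLC transcripts are mouse transcripts that cannot be told apart from those of the host.

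The type 1 axis links antigen-presenting cells to interferon-γ. Dendritic cells and macrophages make IL-12, whose β subunit is shared with IL-23, and IL-18 is stored as a precursor that inflammasomes cleave, so its mRNA does not show how much active cytokine is present. IL-12 and IL-18 together drive NK cells and T cells to make IFN-γ, which induces genes such as *CXCL-9*, a chemokine that draws T cells bearing its receptor CXCR3, whereas IL-23 sustains cells that make IL-17.

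All 5 are protein-coding genes of the mouse (RefSeq, build GRCm38.p6). *IL-12β* is Il12b at chr11:44400063-44414677, *IL-18* is Il18 at chr9:50554700-50581841, and *IFN-γ* is Ifng at chr10:118441046-118445894. *CXCL-9* is Cxcl9 at chr5:92321331-92328079. *IL-23* was read as Il23a, the subunit particular to IL-23, at chr10:128296140-128298084, although the panel name does not say which subunit its primers amplify. No assay is listed for the other subunit of IL-12, so *IL-12β* mRNA stands for a subunit common to 2 cytokines.

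The 250 bases before the start are shown for *IFN-γ* and *IL-18*, each the nearest of the panel genes to the other in its course over the groups, and for *IL-12β*, the member with the widest one. They are printed from RefSeq sequence of GRCm38.p6, each from 5′ to 3′ on the strand of its gene, with motif matches in capitals.
*IFN-γ* (chr10:118440796-118441045, + strand): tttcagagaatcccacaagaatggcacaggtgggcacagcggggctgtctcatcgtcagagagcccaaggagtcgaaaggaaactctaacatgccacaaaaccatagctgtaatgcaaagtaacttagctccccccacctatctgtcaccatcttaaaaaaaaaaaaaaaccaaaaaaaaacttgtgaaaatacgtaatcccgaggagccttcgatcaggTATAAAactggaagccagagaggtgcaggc
*IL-18* (chr9:50554450-50554699, + strand): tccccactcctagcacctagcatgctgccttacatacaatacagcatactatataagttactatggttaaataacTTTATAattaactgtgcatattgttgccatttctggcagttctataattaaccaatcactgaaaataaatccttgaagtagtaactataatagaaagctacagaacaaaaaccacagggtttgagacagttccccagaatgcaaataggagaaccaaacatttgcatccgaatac
*IL-12β* (chr11:44399813-44400062, + strand): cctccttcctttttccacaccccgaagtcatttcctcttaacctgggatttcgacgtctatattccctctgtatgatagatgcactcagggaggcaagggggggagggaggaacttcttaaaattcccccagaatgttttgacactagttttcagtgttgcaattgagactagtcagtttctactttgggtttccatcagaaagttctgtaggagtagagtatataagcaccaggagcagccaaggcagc
Both strands were searched for TATAAA, and for the core of the interferon-stimulated response element and the NF-κB consensus, both given here by name. In the *IFN-γ* window the capitals mark TATAAA from 30 to 25 bases before the start. In the *IL-18* window they mark TATAAA read on the opposite strand, from 175 to 170 bases before the start, and the *IL-12β* window holds no match. The *CXCL-9* window, not printed, holds TATAAA from 195 to 190 bases before the start and neither of the other motifs. Among the 32851 promoter windows in the table, each cut to the same bases, 2.98% held the interferon response core, 7.25% the NF-κB consensus and 12.4% TATAAA. A match is a run of letters, not a bound site. Only exact matches to each pattern were counted, so a window without a match may still hold a site that departs from it.

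Ct is the cycle at which a transcript is first detected, so a lower Ct means more template, and 1 cycle was taken as a 2-fold difference for every assay. The lung label held in every group: *RAGE* and *AGER*, names of a receptor abundant on alveolar type 1 cells, and *CAV1*, also high in those cells, had Ct values between 14.95 and 18.56. The mean of both housekeeping assays served as reference. These 2 assays did not keep a constant distance, since the second lay 8.41 cycles above the first in lungs without LLC given HBSS and 7.13 in those given S100A8, and 5.21 and 6.93 in the respective lungs with LLC. The fold changes of the 5 genes are therefore given with their range over 4 other settings, namely either housekeeping assay alone, the median panel gene as reference, and Ct values capped at 35. Relative to their mean, the first assay alone shifts every log2 difference by 1.60 in HBSS + LLC against HBSS + vehicle, by 0.64 in S100A8 + vehicle against HBSS + vehicle and by -0.86 in S100A8 + LLC against HBSS + LLC, and the second alone shifts it as far the other way. Any smaller difference of another panel gene named below takes the opposite sign under one of them. Ranks within a comparison, and changes in the Ct distance between 2 genes, are the same whichever housekeeping reference is used.

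In lungs without LLC, *IL-12β* was detected at a Ct of 26.04 with HBSS and 30.07 with S100A8, and in lungs with LLC at 22.84 with HBSS and 30.55 with S100A8. Its transcript was thus most abundant in lungs with cancers given HBSS, and least abundant in both groups given S100A8, which lay within 0.48 cycles of each other. *IL-18*, in the same group order, was detected at 33.56, 31.39, 28.2 and 30.4 cycles. It was scarcest in HBSS + vehicle and most abundant in HBSS + LLC.

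*IL-23* stayed above 30 cycles in every group, the only member to do so, at 30.71, 33.2, 31.97 and 32.56. *IFN-γ* had a Ct of 31.24, 30.34, 25.91 and 29.36. As with *IL-18*, its transcript was scarcest in HBSS + vehicle, most abundant in HBSS + LLC and intermediate in both S100A8 groups. *CXCL-9* had a Ct of 24.11, 26.22, 23.98 and 26.01, the only member under 30 cycles throughout.

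**Figure D1:**
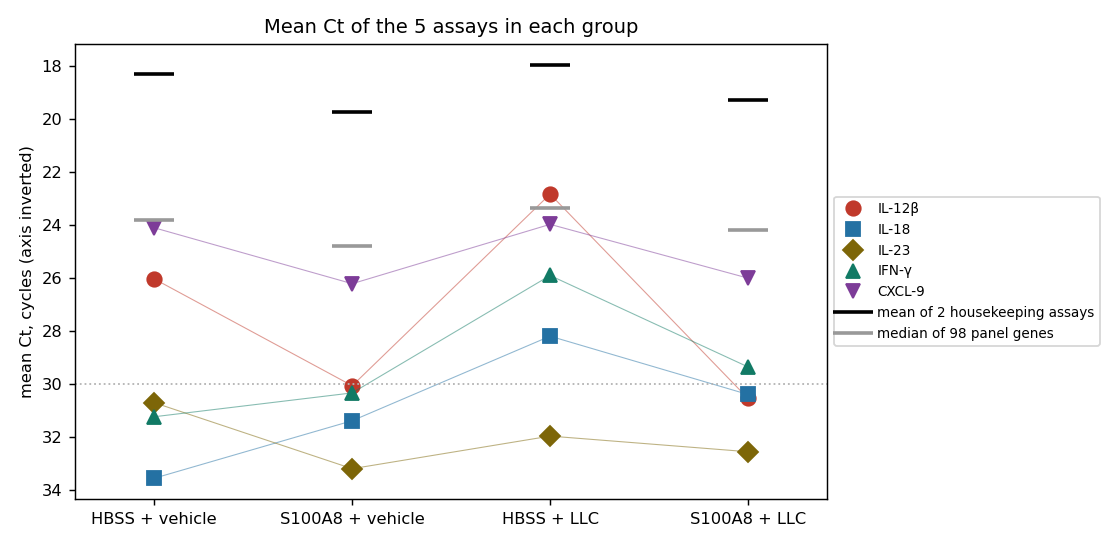
Mean Ct in cycles (inverted axis, so that more transcript is higher) of the 5 genes in the 4 groups, with the mean of the 2 housekeeping assays and the median of the 98 panel genes as bars. Each point is 1 average of 4 to 5 mice, thin lines only join the points of a gene, and the dotted line is at 30 cycles. *IL-12β* reaches 22.84 in HBSS + LLC and passes 30 in both S100A8 groups.

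Relative to the housekeeping assays, the distance between the highest and lowest group was 6.38 on the log2 scale for *IL-12β*, 5.02 for *IL-18*, 4.99 for *IFN-γ*, 1.60 for *IL-23* and 0.91 for *CXCL-9*. The median panel gene had a distance of 1.75. From widest to narrowest, *IL-12β* ranked 8, *IL-18* 12, *IFN-γ* 13, *IL-23* 59 and *CXCL-9* 87 of 98. This distance depends on the reference. Over the 4 other settings *IL-12β*, *IL-18* and *IFN-γ* stayed above the median panel gene and *CXCL-9* below it, between 0.91 and 1.81, while *IL-23* went from 0.41 with the first housekeeping assay alone, the lowest of the 98 genes, to 3.20 with the second alone, at rank 25.

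The effect of LLC cancers was read from HBSS + LLC against HBSS + vehicle. *IL-12β*, *IL-18* and *IFN-γ* were higher with cancers, *IL-23* was lower, and *CXCL-9* lay within 2-fold. *IL-18* was 32.4-fold higher, at 5.02 on the log2 scale with a range over settings of 3.42 to 6.62, and *IFN-γ* was 31.8-fold higher, at 4.99 with a range of 3.39 to 6.59. They took neighbouring places, 7 and 8 from the top of 98 genes. *IL-12β* was 7.26-fold higher, at 2.86 with a range of 1.26 to 4.46, and ranked 14.

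*IL-23* was 3.03-fold lower in HBSS + LLC, at -1.60 on the log2 scale, and ranked 13 from the bottom. With the first housekeeping assay alone the difference was 0, with the second alone it was -3.20, and with the median panel gene as reference it was -1.72. *CXCL-9* had a log2 difference of -0.21 and ranked 50, near the middle of the panel, with a range from -1.81 to 1.39 that includes both directions. Of the 5 genes 3 were more than 2-fold higher, against 26.5% of the 98 panel genes, and 1 was more than 2-fold lower, against 21.4%. Their median log2 difference was 2.86, and that of the panel -0.185. Panel counts depended on the reference: 26 higher and 21 lower turned into 61 and 4 by the first housekeeping assay and 14 and 62 by the second.

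S100A8 in lungs without cancers was read from S100A8 + vehicle against HBSS + vehicle, which shares its control group with the comparison above. Here the inducers parted: *IL-12β* and *IL-23* were lower with S100A8, while *IL-18* and *IFN-γ* were higher. *IL-12β* was 6.02-fold lower, at -2.59 on the log2 scale with a range of -3.23 to -1.95, and ranked 6 from the bottom of the 97 genes with a value. *IL-18* was 12.2-fold higher, at 3.61 with a range of 2.97 to 4.25, and ranked 8 from the top.

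*IFN-γ* was 5.06-fold higher in S100A8 + vehicle, at 2.34 on the log2 scale with a range of 1.70 to 2.98. *IL-23* was 2.07-fold lower, just past the threshold, at -1.05 with a range of -1.69 to -0.41. *CXCL-9* had a log2 difference of -0.67, within 2-fold, and a range of -1.31 to -0.03. Of the 5 genes 2 were higher, against 27.8% of the panel, and 2 were lower, against 17.5%. Their median was -0.67 beside 0.34 for the panel, and the panel's 27 higher and 17 lower genes turned into 48 and 11 by the first housekeeping assay, 16 and 30 by the second and 19 and 25 by the median panel gene.

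**Figure D2:**
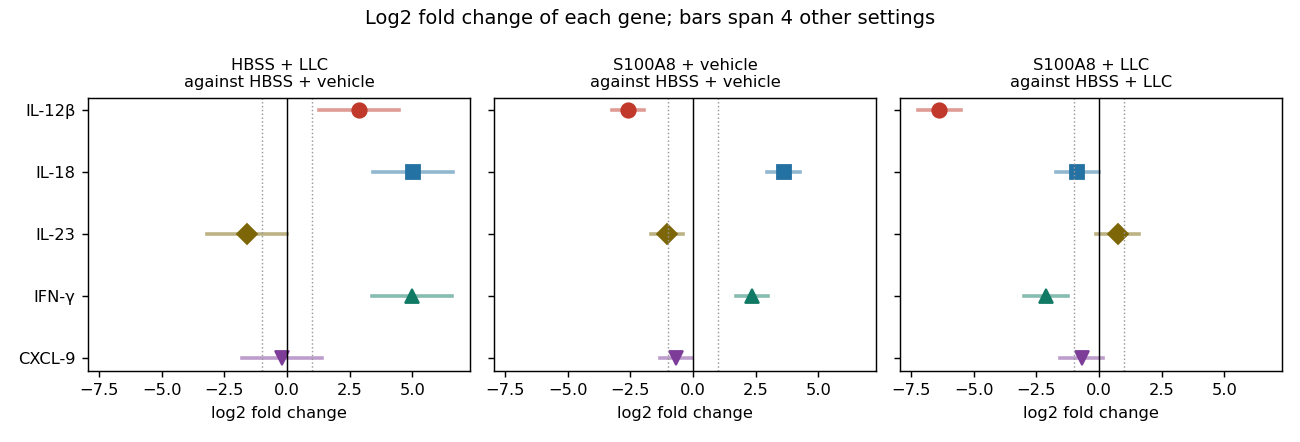
Log2 fold change (horizontal axis) of each gene in 3 comparisons, with the mean of both housekeeping assays as reference (symbols) and the lowest to highest value over that and the 4 other settings (bars). Dotted lines mark 2-fold. *IL-12β* lies at 2.86, -2.59 and -6.38, while the bars of *CXCL-9* reach past 0 in the LLC comparison and in S100A8 + LLC against HBSS + LLC.

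S100A8 in lungs with cancers was read from S100A8 + LLC against HBSS + LLC. *IL-12β* and *IFN-γ* were lower with S100A8 and the other 3 genes lay within 2-fold. *IL-12β* was 83.3-fold lower, at -6.38 on the log2 scale with a range of -7.24 to -5.52, the lowest value of the 98 genes. Its Ct went from under 23 to over 30 cycles, 7.71 cycles apart. *IFN-γ* was 4.35-fold lower, at -2.12 with a range of -2.98 to -1.26, and ranked 5 from the bottom.

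*IL-18* had a log2 difference of -0.87 between S100A8 + LLC and HBSS + LLC, with a range of -1.73 to -0.01. *CXCL-9* had -0.70, with a range of -1.56 to 0.16, and *IL-23* had 0.74, with a range of -0.12 to 1.60. None of these 3 differences passed 2-fold, and those of *CXCL-9* and *IL-23* took either sign within their ranges. No member was more than 2-fold higher, against 11.2% of the panel, and 2 were lower, against 15.3%. The members' median was -0.87 and the panel's -0.055, and the panel's 11 higher and 15 lower genes turned into 5 and 44 by the first housekeeping assay, 39 and 6 by the second and 8 and 32 by the median panel gene.

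Among lungs given S100A8, those with and without LLC lay within 2-fold of each other for every member, with the mean of both housekeeping assays as reference. In S100A8 + LLC against S100A8 + vehicle, a comparison that was added after the data had been seen, log2 differences were -0.93 for *IL-12β*, 0.54 for *IL-18*, 0.19 for *IL-23*, 0.53 for *IFN-γ* and -0.24 for *CXCL-9*. The range for *IL-12β* was -1.10 to -0.83, past 2-fold at its lower end, and each of the other 4 kept within 2-fold under every setting, between -0.41 and 0.64. None of the 5 passed 2-fold in either direction, against 12.2% of the panel higher and 29.6% lower. The members' median was 0.19 beside -0.435 for the panel.

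Against HBSS + vehicle, the S100A8 + LLC lungs were higher in 2 members and lower in 1. *IL-18* was 17.8-fold higher, at 4.15 on the log2 scale with a range of 3.41 to 4.89, and ranked 7 from the top. *IFN-γ* was 7.31-fold higher, at 2.87 with a range of 2.13 to 3.61, and ranked 11. *IL-12β* was 11.5-fold lower, at -3.52 with a range of -4.26 to -2.78, and ranked 3 from the bottom. *IL-23* had -0.86, with a range of -1.60 to -0.12, and *CXCL-9* -0.91, with a range of -1.65 to -0.17, so that both lay within 2-fold but passed it at the lower end of their ranges. In this comparison 22.4% of the panel was higher and 18.4% lower, and the members' median was -0.86 beside -0.22 for the panel. The first housekeeping assay alone shifts these differences by 0.74 and the second by -0.74, and the panel's 22 higher and 18 lower genes turned into 37 and 8 or 16 and 47, or 17 and 41 by the median panel gene.

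**Figure D3:**
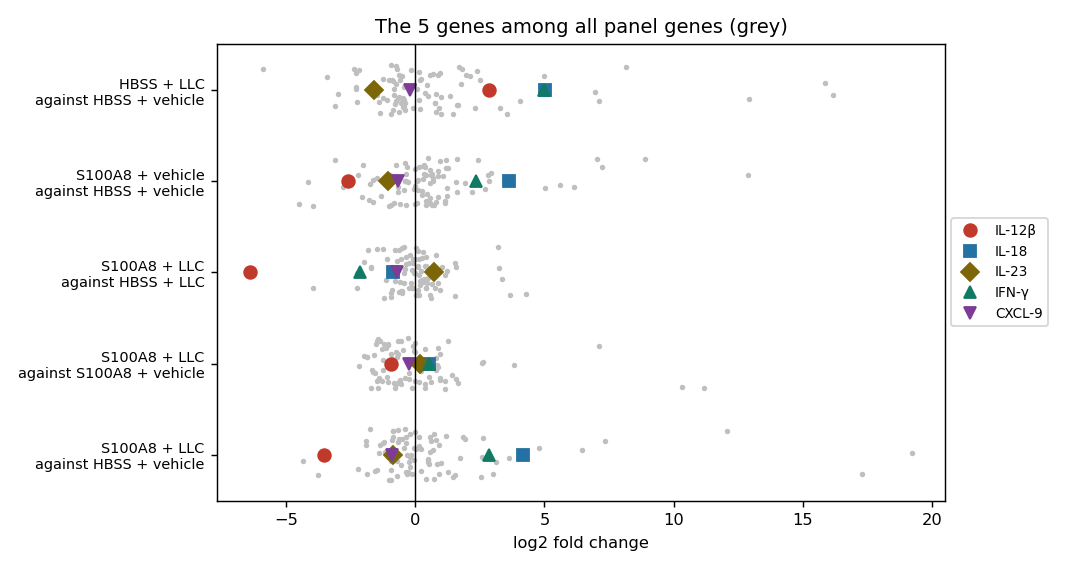
Log2 fold change (horizontal axis) of the 5 genes (coloured symbols) among the other panel genes (grey, spread vertically only for legibility) in 5 comparisons, with genes at 38 cycles in 1 group drawn at their bound. *IL-12β* is the lowest point of the panel in S100A8 + LLC against HBSS + LLC, and the symbols of *IL-18* and *IFN-γ* overlap at 5.02 and 4.99 in HBSS + LLC against HBSS + vehicle.

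The effect of S100A8 was next set side by side in lungs with and without LLC. The log2 difference with LLC minus the one without came to -4.48 for *IL-18*, -4.46 for *IFN-γ* and -3.79 for *IL-12β*. From the lowest of 97 genes these held the successive ranks 9, 10 and 11, and the median of the panel was -0.52. The route differed, because *IL-12β* was lower with S100A8 in both settings while *IFN-γ* was higher without LLC and lower with it. *IL-23* had a difference of 1.79, rank 14 from the top, and *CXCL-9* one of -0.03, with effects of -0.67 and -0.70. Over the settings the difference ranged from -5.29 to -2.29 for *IL-12β* and from -1.53 to 1.47 for *CXCL-9*, so that the equal effects on *CXCL-9* hold with the mean of both housekeeping assays but with neither alone. No test of these differences was possible with 1 value per group.

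**Figure D4:**
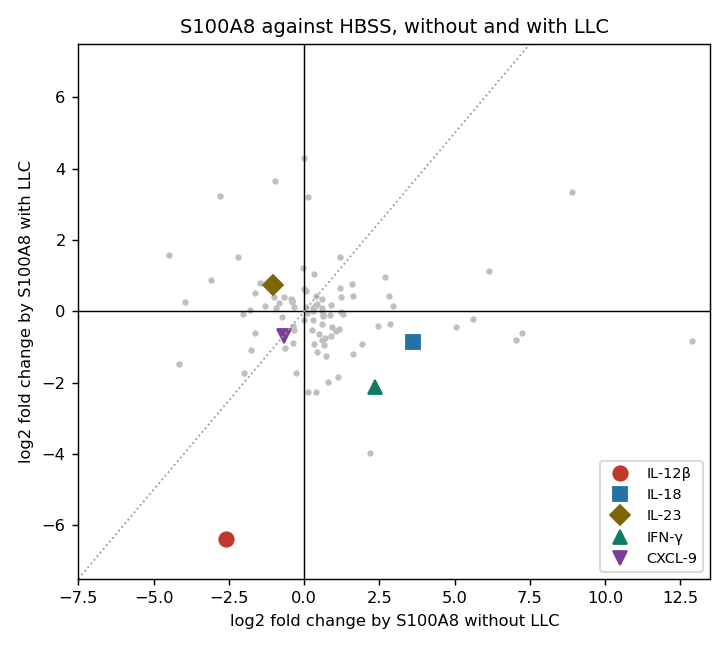
Log2 fold change by S100A8 without LLC (horizontal axis) and with LLC (vertical axis) for the 5 genes (coloured symbols) and the other panel genes (grey). On the dotted line both effects are equal. With the mean of both housekeeping assays as reference, *CXCL-9* lies on it at -0.67 and -0.70 (difference -0.03, range -1.53 to 1.47 over the settings), *IFN-γ* lies below it at 2.34 and -2.12, and *IL-12β* is low on both axes at -2.59 and -6.38.

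*IL-18* and *IFN-γ* kept a Ct distance that followed S100A8 and not LLC. *IL-18* was detected 2.32 cycles after *IFN-γ* in HBSS + vehicle and 2.29 cycles after it in HBSS + LLC, but only 1.05 cycles after it in S100A8 + vehicle and 1.04 cycles in S100A8 + LLC. The distance thus differed with LLC by -0.03 cycles in HBSS lungs and -0.01 in S100A8 lungs, and with S100A8 by -1.27 cycles without LLC and -1.25 with LLC, a 2.41-fold and a 2.38-fold shift towards *IL-18*. This pattern was noticed in the 10 distances between members and has no measure of error.

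Relative to *IFN-γ* and to *IL-18*, *IL-12β* was lower with S100A8 in lungs with and without LLC. The distance from *IL-12β* to *IFN-γ* was -5.20 cycles with HBSS and -0.27 with S100A8 in lungs without LLC, and -3.07 and 1.19 in lungs with LLC, negative where *IL-12β* was detected first. The shift with S100A8 was 30.5-fold without LLC and 19.2-fold with LLC, both towards *IFN-γ*. Against *IL-18* the shift was 73.5-fold without LLC and 45.6-fold with LLC, both towards *IL-18*.

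*IL-12β* and *IL-23*, which encode partners in the IL-23 protein if the assay detects Il23a, differed in their courses over the groups. The Ct of *IL-12β* minus that of *IL-23* was -4.67 with HBSS and -3.13 with S100A8 in lungs without LLC, and -9.13 and -2.01 in lungs with LLC. With LLC the distance was wider in HBSS lungs, a 22-fold shift towards *IL-12β*, and with S100A8 it was 7.12 cycles narrower in lungs with LLC, a 139-fold shift away from it.

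*CXCL-9* did not take the course of *IFN-γ*, its best-known inducer. Without LLC, *IFN-γ* was detected 7.13 cycles after *CXCL-9* with HBSS and 4.12 with S100A8, and with LLC 1.93 and 3.35 cycles after it. In HBSS + LLC the distance was 1.93 instead of 7.13 cycles, so *IFN-γ* was 36.8-fold higher relative to *CXCL-9* than in HBSS + vehicle. With S100A8 it was shorter without LLC, an 8.06-fold shift towards *IFN-γ*, and 1.42 cycles longer with LLC, a 2.68-fold shift towards *CXCL-9*.

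The panel genes nearest to each member were ranked by the root mean square difference of their log2 levels, centred over the 4 groups, among 93 genes that no group held at 38 cycles. This measure rests on 4 averages and is the same under any housekeeping reference. *IL-18* and *IFN-γ* were each other's nearest gene, at 0.63. After them came *ARG1*, an arginine-degrading enzyme, at 0.82 and *CDH1*, the epithelial cadherin, at 0.89 for *IL-18*, and *CAT2*, an arginine transporter, at 0.80 and *HIF-1α*, a hypoxia-regulated factor, at 0.81 for *IFN-γ*. *IL-12β* had no close neighbour, with *IL-5*, the eosinophil growth factor, at 1.66, *COX-2* at 1.84 and *CAT2* at 1.86. The panel also lists *PTGS2*, another name of *COX-2*, and their values differed. In S100A8 + vehicle against HBSS + vehicle *PTGS2* had -1.75 and *COX-2* -0.28.

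*IL-23* and *CXCL-9* had nearer neighbours, and the distance between them was 0.58. For *IL-23* these were *CXCR4*, a chemokine receptor, at 0.14, *IGF-1*, a growth factor, at 0.24 and *CCL-2*, a monocyte chemokine, at 0.27. For *CXCL-9* they were *VCAM-1*, an adhesion molecule of endothelium, at 0.23, *HGF*, a growth factor, at 0.30 and *IL-6* at 0.34. *IFN-γ* came only at rank 82 for *CXCL-9*, at 1.90.

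Other genes known to be induced by IFN-γ did not share one course. In HBSS + LLC 2 of 4 were more than 2-fold higher than in HBSS + vehicle and 1 was lower, beside 26.5% and 21.4% of the panel, with 1 to 3 higher and 0 to 2 lower over the other settings. *IDO*, a tryptophan-degrading enzyme, was higher by 2.51 on the log2 scale and *iNOS* had -1.08. *ICAM-1*, an adhesion molecule, was higher by 12.90, but by 12.88 in S100A8 + vehicle and 12.07 in S100A8 + LLC as well, since its Ct was 32.47 in HBSS + vehicle and between 19.23 and 21.39 in the other 3 groups. With S100A8 in lungs with LLC 1 of 4 was lower, *IDO* at -1.98 with a range of -2.84 to -1.12, beside 15.3% of the panel, and 3 of 4 were lower by the first housekeeping assay and by the median panel gene. *CXCL-10*, the closest relative of *CXCL-9* on the panel and named here after its values had been seen, had 0.08 with LLC and -0.69 with S100A8 in lungs with LLC.

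T cells and NK cells are the main makers of IFN-γ. The 4 panel genes listed for these cells were *LCK*, *IL-2*, *CCL-5* and *IRF-4*, which need not be confined to them. In HBSS + LLC, where *IFN-γ* was 31.8-fold higher, none was more than 2-fold higher, beside 26.5% of the panel. Lower were 2, *LCK* and *IRF-4* (-1.57), beside 21.4%. With the first housekeeping assay alone the counts became 1 higher and 0 lower, and with the second alone or the median panel gene 0 higher and 3 lower. *LCK*, a kinase of T cell receptor signalling, was detected at 20.76 cycles with HBSS and 23.83 with S100A8 in lungs without LLC, and at 22.79 and 23.61 in lungs with LLC. It was scarcer in the other 3 groups than in HBSS + vehicle, with log2 values of -2.37 in HBSS + LLC (range -3.97 to -0.77) and -1.63 in S100A8 + vehicle (range -2.27 to -0.99). *IL-2*, the other T cell marker, was above 35 cycles in every group and at the limit of 38 in S100A8 + vehicle. With S100A8 in lungs with LLC, *LCK* had 0.51, *IRF-4* 0.56, *CCL-5* 0.11 and *IL-2* 1.04, and the last of these became 0.18 with the first housekeeping assay alone. Of the 4, 1 was thus more than 2-fold higher, beside 11.2% of the panel. This count was 0 with the first assay alone or the median panel gene, and 3 with the second alone. The part of T cell number in the *IFN-γ* values was not tested.

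IL-12 comes from myeloid cells and IL-18 largely from macrophages and epithelium. Of 3 myeloid markers, 2 were more than 2-fold higher in S100A8 + vehicle, where *IL-12β* was lower, with *S100A8* at 1.20 on the log2 scale and *S100A9* at 1.06, in a comparison where 27.8% of the panel was higher. None was higher there with the second housekeeping assay alone or with the median panel gene. In HBSS + LLC the 3 markers had values between -0.38 (*S100A9*) and 0.70 (*NOX2*). With S100A8 in lungs with LLC they lay between -0.95 (*NOX2*) and 0.66 (*S100A8*). The first housekeeping assay alone placed all 3 more than 2-fold higher in the former comparison and 2 lower in the latter, and the second alone 2 lower and 1 higher, so that these counts depend on the reference. The median panel gene also placed 2 lower in the latter.

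Of 4 epithelial markers, *CDH1* was higher by 4.07 on the log2 scale in HBSS + LLC and by 5.03 in S100A8 + vehicle, *KRT5* was lower, at -3.11 and -3.10, and *MUC1* had -0.53 and 0.58. The fourth, *KRT14*, was lower in HBSS + LLC, at -1.68 with a range of -3.28 to -0.08, and had 0.01 in S100A8 + vehicle. With S100A8 in lungs with LLC, *KRT14* was higher by 4.29, the highest value of the 98 genes, while *KRT5* had 0.89, *MUC1* -0.34 and *CDH1* -0.45. The part of myeloid and epithelial cells in the *IL-12β* and *IL-18* values was not tested.

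Of 4 innate inflammatory genes none was more than 2-fold higher in HBSS + LLC, where 26.5% of the panel was higher, and 1 was lower, *TNF-α* at -1.46, where 21.4% of the panel was lower. *IL-6* had the highest value, at -0.63. With S100A8 in lungs with LLC 1 was lower, *IL-1β* at -1.03, beside 15.3% of the panel, and *TNF-α* had 0.09. The count of lower genes went from 0 with the first to 4 with the second housekeeping assay alone in HBSS + LLC, and from 3 to 0 with S100A8 in lungs with LLC, and none was higher under any of these settings.

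Of 5 type 2 and regulatory cytokines 3 were higher in HBSS + LLC and 1 was lower, beside 26.5% and 21.4% of the panel, with 2 to 4 higher and 1 to 2 lower over the other settings. *IL-10*, which restrains IL-12 production, was higher by 7.09 on the log2 scale, and by 7.23 in S100A8 + vehicle and 6.47 in S100A8 + LLC as well, from a Ct of 36.68 in HBSS + vehicle near the limit of detection. With the cap at 35 cycles it was higher by 5.41 in HBSS + LLC and by 5.55 in S100A8 + vehicle. *IL-13* was lower, at -5.88 with a range of -7.48 to -4.28. *IL-4*, which opposes type 1 responses, was higher by 6.97, with a range of 3.97 to 8.57. Its control was at the limit of 38 cycles, so 6.97 is a lower bound, and only with the mean of both housekeeping assays. With S100A8 in lungs with LLC *IL-4* was lower, at -3.96 with a range of -4.82 to -2.98, *IL-5* was lower, at -1.73 with a range of -2.59 to -0.87, and *IL-13* was higher by 1.52 with a range of 0.66 to 2.38. Higher with LLC and lower with S100A8 in lungs with LLC under every setting were thus *IL-12β* and *IFN-γ* among the type 1 genes and *IL-4* among the type 2 genes. For *IL-4* this rests on Ct values of 38 in HBSS + vehicle and 35.98 in S100A8 + LLC. The course was not particular to these genes. With the mean of both housekeeping assays, *HIF-1α* had 3.54 and -2.27, *CAT2* 3.27 and -2.26 and *IDO* 2.51 and -1.98.

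Beside *IL-23*, the panel holds *IL-17β*, a relative of the IL-17 that IL-23 sustains, and *STAT3*, which signals downstream of the IL-23 receptor. *IL-17β* was higher by 2.88 on the log2 scale in HBSS + LLC, with a range of 1.28 to 4.48, and lower in S100A8 + vehicle, at -3.96 with a range of -4.60 to -3.18. *STAT3* had -0.87 and 0.58, and with S100A8 in lungs with LLC neither passed 2-fold, at 0.26 and 0.02, although *IL-17β* had 1.12 with the second housekeeping assay alone.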

How the data were processed

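Total RNA of lungs was reverse-transcribed (1.5 µg) and run on SYBR Green assays of 98 genes and 2 housekeeping genes. The labels name a Roche LightCycler and the paper a QuantStudio machine. The authors deposited Ct values, 1 mean per group and assay over 4 to 5 mice without normalization and with a limit of 38 cycles, and a ratio, the fold change against HBSS + vehicle. The labels give 1 sample per group. The deposited ratios served only to identify the assays: 98 of 98 genes matched exactly 1 numbered assay at all 3 fold changes, within a tolerance of 0.1%. The 2 assays left over were taken as housekeeping, and which is β-actin and which β2M is not given.

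Log2 fold changes were computed as the negative group difference of Ct minus the mean housekeeping Ct (Python 3.11.15, numpy 2.4.6, pandas 2.3.3), and more than 2-fold counted as higher or lower. Code was tested on simulated data. Members and gene lists were chosen with earlier results of these data known. For each list, the genes highest and lowest in the LLC comparison and in S100A8 + LLC against HBSS + LLC were named, and for each member the 3 nearest genes. A list for proliferating cells held only *MKI67*, at -0.46 and 0.25 in these comparisons, both within 2-fold. Alternatives were each housekeeping assay alone, the median panel Ct as reference, a cap at 35 cycles, thresholds of 1.5-fold and 3-fold, and Ct limits of 30 and 35. Depth is not defined for Ct, and high Ct values are the least precise. Promoter windows are RefSeq sequence of GRCm38.p6, without transcribed bases.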

Additional observations from a re-analysis of the deposited data

Results flagged for a closer look

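In 3 of the 5 genes the S100A8 groups lay on opposite sides of their HBSS groups depending on LLC, as did 58 of the 97 panel genes with a value (59.8%), so the count is near the background. On the log2 scale, the S100A8 difference with LLC minus that without was -4.48 for *IL-18*, -4.46 for *IFN-γ* and 1.79 for *IL-23*. For *IFN-γ* both effects were past 2-fold, for *IL-18* and *IL-23* the effect with LLC was not. With the first housekeeping assay alone, *IL-23* lay on the same side in both, at -0.41 without LLC and -0.12 with it, and with the second alone *IL-18* had only -0.01 with LLC. The differences were not tested, because each group is a single average. They ranged over the references and the cap from -5.98 to -2.98 for *IL-18*, from -5.96 to -2.96 for *IFN-γ* and from 0.29 to 3.29 for *IL-23*. Single outlying mice could not be looked for.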

How the results depend on the processing

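Of 100 log2 fold changes recomputed with other references or a cap at 35 cycles, 96 kept their sign and none past 2-fold turned to the other sign. The exceptions were *CXCL-9* in HBSS + LLC against HBSS + vehicle (1.39 with the first housekeeping assay alone) and in S100A8 + LLC against HBSS + LLC (0.16 with the second alone), and *IL-23* in the same comparisons, at 0 and -0.12 with the first alone.

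Of 80 counts of members past the threshold, 58 stayed within 1.5 times. In HBSS + LLC against HBSS + vehicle, members lower became 0 with the first housekeeping assay and 2 with the second, and a Ct of at most 30 in both groups left 1 higher and 0 lower. In S100A8 + vehicle against HBSS + vehicle, members lower became 1 with the first assay and 1 at 3-fold, and the Ct limit of 30 left 0 higher and 0 lower. In S100A8 + LLC against HBSS + LLC, members lower became 4 with the first assay, with the panel median and at 1.5-fold, and 1 under the Ct limit of 30, while members higher became 1 with the second assay and at 1.5-fold. In S100A8 + LLC against S100A8 + vehicle, members lower became 1 with the second assay, with the panel median and at 1.5-fold. In S100A8 + LLC against HBSS + vehicle, members lower became 3 under those same settings, and the Ct limit of 30 left 0 higher and 0 lower. The distance between the highest and lowest group, recomputed after the data had been seen, moved by over 1.5 times for *IL-23* and *CXCL-9*, and counts in the gene lists were recomputed likewise. The limit of 30 leaves fewer genes, since only *CXCL-9* is below it in every group.

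No paired analysis was possible because the deposited columns hold 1 average per group and carry no replicate number. Leaving out a mouse was not possible for the same reason. Precision cannot be stated, and no difference was compared with the spread between mice. Equal amplification efficiency of all assays was assumed.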
